A study of Mus musculus with 4 samples.

Results

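Trophoblast transcription factors are the DNA-binding proteins that set up and maintain the outer lineage of the early mouse embryo, which later forms the placenta. The 10 genes considered here were Tfap2a, Tfap2c, Cdx2, Eomes, Elf5, Gata2, Gata3, Ets2, Hand1 and Gcm1. Their measurements were every probe set that the array platform's annotation assigned to exactly 1 of these symbols, which gave 20 of the 45037 tested probe sets, for 9 of the 18193 measured genes. No probe set was listed with Gcm1, a factor of syncytiotrophoblast formation, so Gcm1 was not analysed here. Tfap2a, Tfap2c and Ets2 had 3 probe sets each, Gata3 had 1, and the other members had 2.

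The arrays came from F9 cells, an embryonal carcinoma line of the mouse with many features of early, pluripotent embryonic cells. Stable F9 cells were selected with puromycin after infection with a pLKO.1 lentivirus that carried either a short hairpin RNA against Phf19 (shPhf19, 2 arrays) or the control vector (shVector, 2 arrays), so both groups had been infected and drug-selected. Phf19 encodes a Polycomb-like partner of Polycomb repressive complex 2, which methylates histone H3 at lysine 27. The labels call the replicates biological, and give neither the number of hairpins against Phf19 nor whether replicates arose from separate infections. The p-values cover only the spread among these 4 arrays.

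In the blastocyst, Hippo signalling is low in outer cells, the co-activator Yap1 enters the nucleus, and with Tead4 it switches on Cdx2 and, in parallel, Gata3. Cdx2, Eomes, Elf5 and Tfap2c then sustain trophoblast stem cells that depend on fibroblast growth factor, and Hand1 and Gcm1 drive the differentiated giant and syncytial cells. In pluripotent cells many genes for such lineage factors lie under Polycomb repression. Tfap2c is also used outside the trophoblast, among other places in primordial germ cells. The comparison asked whether the transcripts of these factors differed when Phf19 was knocked down.

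The deposited values are log2 expression, and group differences are given as shPhf19 minus shVector with limma's moderated standard error (SE) and a Benjamini-Hochberg adjusted p over all tested probe sets, with a threshold of 0.05. Array medians lay between 5.75 and 5.76. Of the 2 Phf19 probe sets, 1427920_at was lower in shPhf19 (-0.98 ± 0.10 SE, limma adjusted p = 0.0108) and 1431857_at did not pass (-0.06 ± 0.12, adjusted p = 0.928). The 9 embryonal carcinoma markers averaged 10.4 to 14.3 over the arrays, and none passed the test. Those with the smallest p were the pluripotency factors Nanog (-0.26 ± 0.05 SE, limma adjusted p = 0.0923) and Sall4 (0.17 ± 0.05 SE, adjusted p = 0.249). For both, the groups did not overlap. The dimmer Sall4 probe set, 1424153_s_at, lay in the other direction, also without overlap, at -0.27 ± 0.10 (SE, adjusted p = 0.316). When any 1 of the 4 arrays was left out (each array of shVector and each of shPhf19 in turn), limma called 0 probe sets, with 2539 to 6942 at an unadjusted p under the threshold against 5708 with all arrays, so every call below requires all 4 arrays.

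Among the trophoblast factors, Tfap2c fell and no other member passed the test. By the brightest probe set of each gene, 1 of the 9 measured members fell and 0 rose, against a background of 0.863% of all genes that fell and 1.15% that rose. At an unadjusted p under the threshold, 2 members, Tfap2c and Ets2, lay below 0 and 0 above it, beside 7.35% and 7.73% of all genes. Of the 20 member probe sets, 2 passed in limma, both of them for Tfap2c, against 1.41% of all probe sets. The median change of the 9 members was 0.09, beside -0.0028 over all genes, with 5 members above 0 and 4 below. The arrays of the groups did not overlap for 6 of the 9 members, beside 43.5% of all genes, and for 12 of their 20 probe sets, beside 40.5% of all probe sets. Because whole cultures were measured, fewer cells with a transcript and less of it per cell cannot be told apart.

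Tfap2c encodes AP-2 gamma, which keeps trophoblast stem cells in their undifferentiated state and acts in germ cell specification. Its brightest probe set, 1436392_s_at, read 8.42 and 8.37 in shVector replicates 1 and 2, and 7.43 and 7.66 in shPhf19 replicates 1 and 2. Both shPhf19 arrays were low, and the gap between the groups was wider than either gap between replicates, 0.05 in shVector and 0.22 in shPhf19. The change was -0.85 ± 0.10 (SE; 95% interval -1.09 to -0.61; limma adjusted p = 0.0177), which left 55.4% of the control signal.

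A second probe set of Tfap2c, 1418147_at, read 7.10 and 6.98 in shVector and 6.42 and 6.40 in shPhf19. It also passed, at -0.62 ± 0.09 (SE; limma adjusted p = 0.0349). The third, 1448977_at, read 5.85 and 6.24 in shVector and 5.29 and 5.37 in shPhf19, again without overlap, and at -0.72 ± 0.14 (SE) it missed the threshold (limma adjusted p = 0.0838). All 3 therefore lay in 1 direction, with 95% intervals below 0 in each case and the widest gap between replicates, 0.39, in the shVector arrays of the probe set that did not pass. The mean of the 3 probe sets changed by -0.73 ± 0.07 (SE, limma adjusted p = 0.00722). Here and below, the p of such a mean comes from a fit of gene means, adjusted over genes in place of probe sets. The suffix _s_at marks a probe set that can hybridise to more than 1 transcript, which the other probe sets of Tfap2c do not carry.

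The Tfap2c call depended on the number of arrays. For 1436392_s_at limma's adjusted p was 0.145 when shVector replicate 1 was left out and 0.176 when shVector replicate 2 was. It was 0.761 when shPhf19 replicate 1 was left out and 0.554 when shPhf19 replicate 2 was. Its change stayed between -0.96 and -0.74 in these fits. For 1418147_at the change ran from -0.68 to -0.56 and the adjusted p from 0.154 to 0.816.

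**Figure D1:**
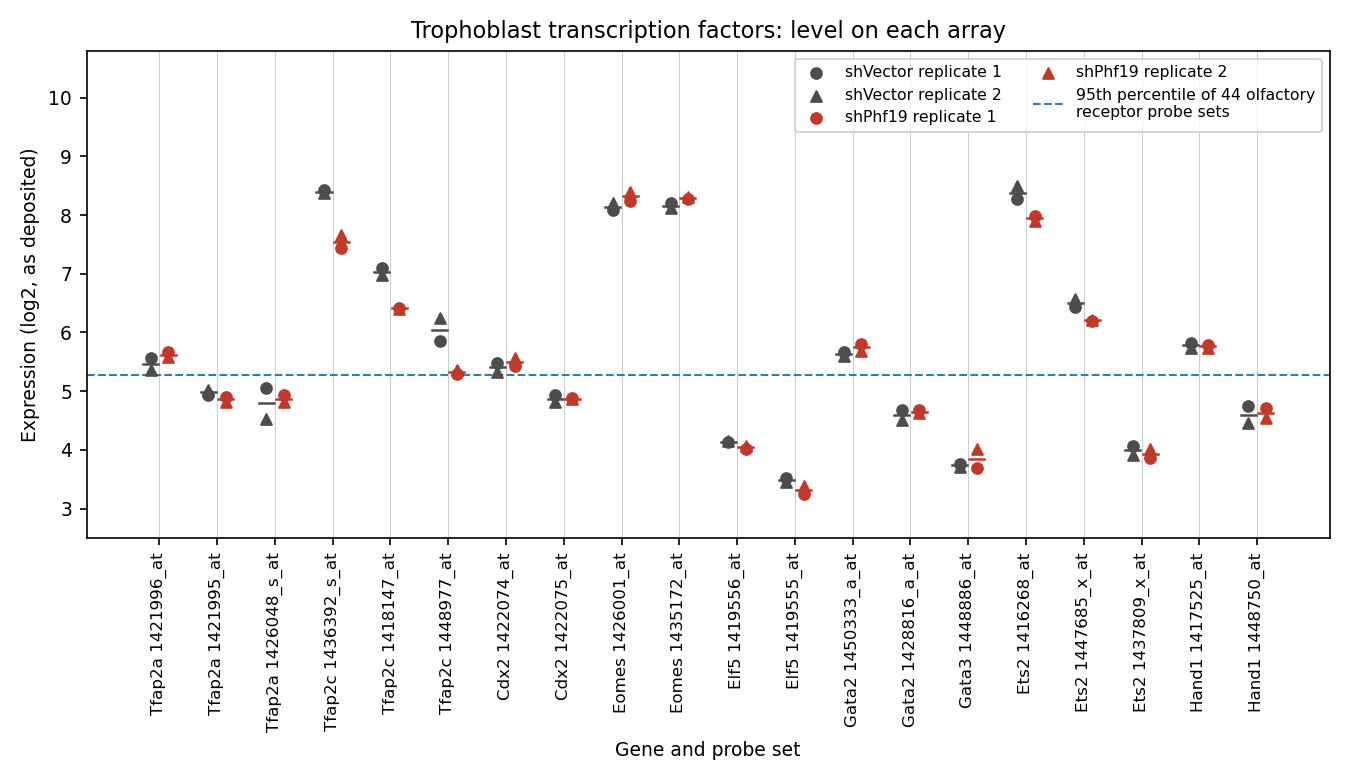
Level of each of the 20 probe sets on each of the 4 arrays, in log2 units on the vertical axis, with shVector in grey, shPhf19 in red, circles for replicate 1, triangles for replicate 2 and a short bar for each group mean. The Tfap2c pairs separate (8.42 and 8.37 against 7.43 and 7.66 for the brightest probe set), and 9 of the 20 probe sets lie below the dashed line at 5.27, the 95th percentile of 44 olfactory receptor probe sets.

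Tfap2a encodes AP-2 alpha, the closest relative of AP-2 gamma among the members, used in trophoblast, neural crest and surface ectoderm. Its brightest probe set, 1421996_at, read 5.57 and 5.35 in shVector and 5.66 and 5.57 in shPhf19. The groups barely separated, and the change of 0.16 ± 0.11 (SE; 95% interval -0.11 to 0.42; limma adjusted p = 0.656) did not pass. The other probe sets of Tfap2a did not share a direction, at -0.12 ± 0.10 for 1421995_at and 0.08 ± 0.17 for 1426048_s_at. The interval of the Tfap2a change and that of Tfap2c did not overlap, but the difference between these changes was not tested.

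Ets2, a factor downstream of fibroblast growth factor signalling that trophoblast stem cells need for self-renewal, had the next largest shift. Probe set 1416268_at read 8.27 and 8.49 in shVector and 7.99 and 7.89 in shPhf19. Both shPhf19 arrays were below both shVector arrays, and the change of -0.44 ± 0.10 (SE; 95% interval -0.68 to -0.19) did not pass over all probe sets (limma adjusted p = 0.131). A second probe set, 1447685_x_at, read 6.44 and 6.56 in shVector and 6.19 and 6.22 in shPhf19, for a change of -0.30 ± 0.09 (SE; limma adjusted p = 0.253). The dimmest, 1437809_x_at, read between 3.86 and 4.07 on all arrays, with overlapping groups and a change of -0.05 ± 0.11. Its 95% interval, -0.31 to 0.21, does not reach the change of the brightest probe set, and the mean of the 3 was at -0.26 (adjusted p = 0.135).

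Eomes, a T-box factor that follows Cdx2 in trophectoderm and is also used in the primitive streak and definitive endoderm, was among the brighter members. Probe set 1426001_at read 8.08 and 8.21 in shVector and 8.24 and 8.40 in shPhf19, and 1435172_at read 8.20 and 8.12 against 8.28 and 8.31. Both probe sets were slightly higher in shPhf19 without overlap. Their changes of 0.17 ± 0.10 (SE; 95% interval -0.06 to 0.40; limma adjusted p = 0.546) and 0.13 ± 0.08 (SE; limma adjusted p = 0.587) did not pass.

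Cdx2, the homeobox factor that starts the trophectoderm programme, read 5.48 and 5.33 in shVector and 5.43 and 5.57 in shPhf19 by 1422074_at. The groups overlapped, and the change was 0.09 ± 0.11 (SE; 95% interval -0.16 to 0.34; limma adjusted p = 0.826). The other Cdx2 probe set, 1422075_at, lay at 0.0030 ± 0.10, with levels of 4.81 to 4.93.

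Elf5, an ETS factor whose promoter is methylated in embryonic cells and open in trophoblast, was dim. Probe set 1419556_at read 4.13 and 4.15 in shVector and 4.01 and 4.07 in shPhf19, a change of -0.10 ± 0.09 (SE; limma adjusted p = 0.760). The other Elf5 probe set, 1419555_at, was at -0.17 ± 0.10 with levels of 3.25 to 3.51. Both lay slightly below control in both shPhf19 arrays.

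Gata3, a zinc finger factor that acts beside Cdx2, had the lowest level among the brightest probe sets of the members. It read 3.76 and 3.71 in shVector and 3.69 and 4.01 in shPhf19 by its only probe set, 1448886_at. The shPhf19 replicates were 0.33 apart, more than the change of 0.11 ± 0.13 (SE; limma adjusted p = 0.819). Gata2, its paralog in trophoblast giant cells and blood progenitors, read 5.68 and 5.60 in shVector and 5.81 and 5.68 in shPhf19 by 1450333_a_at. That change, 0.11 ± 0.10 (SE; 95% interval -0.13 to 0.34; limma adjusted p = 0.754), did not pass, nor did that of 1428816_a_at (0.05 ± 0.10).

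Hand1, a basic helix-loop-helix factor that drives giant cell formation and is also used in extraembryonic mesoderm and heart, gave the smallest change among the brightest probe sets. It read 5.82 and 5.73 in shVector and 5.79 and 5.74 in shPhf19 by 1417525_at. The change was -0.01 ± 0.09 (SE; 95% interval -0.24 to 0.21; limma adjusted p = 0.989). The second Hand1 probe set, 1448750_at, was at 0.03 ± 0.13 with overlapping groups.

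**Figure D2:**
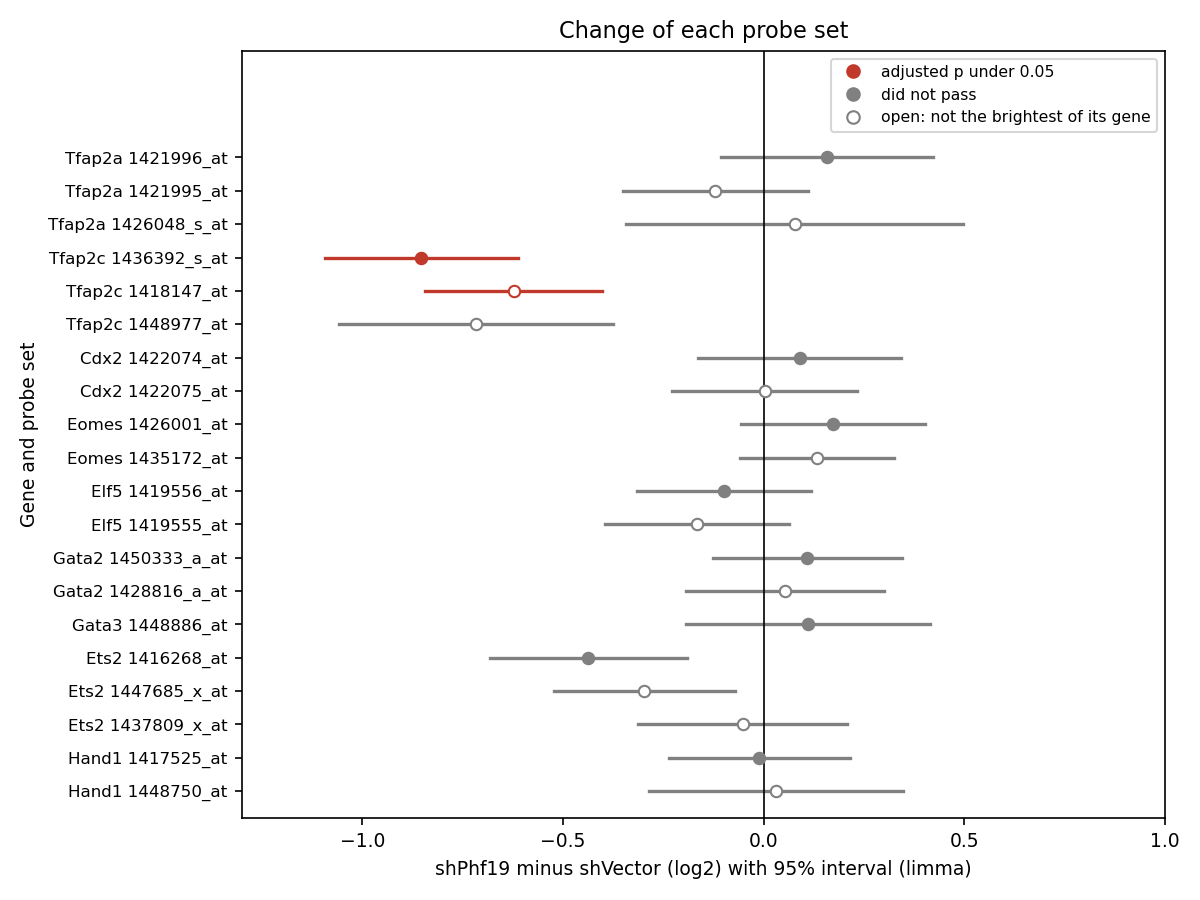
Change of each probe set, shPhf19 minus shVector in log2 units on the horizontal axis, with limma's 95% interval as a line; red marks an adjusted p under the threshold and open points are probe sets that are not the brightest of their gene. The 3 Tfap2c intervals and the intervals of 2 of the 3 Ets2 probe sets lie below 0, and the interval of every other member probe set includes 0.

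Levels of the members fell into a brighter and a dimmer set. In shVector the means of the brightest probe sets were 8.40 ± 0.04 (SD, n = 2) for Tfap2c, 8.38 ± 0.16 for Ets2 and 8.15 ± 0.09 for Eomes. Then came 5.78 ± 0.07 for Hand1, 5.64 ± 0.06 for Gata2, 5.46 ± 0.15 for Tfap2a and 5.41 ± 0.10 for Cdx2, and last 4.14 ± 0.02 for Elf5 and 3.74 ± 0.03 for Gata3. Tfap2c and Ets2 did not differ beyond their spread, nor did Tfap2a and Cdx2. Probe sets differ in affinity, so this order describes array signal and not the amounts of transcript.

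The table carries no detection calls, so 44 probe sets of olfactory receptor genes, which few tissues express, were taken as a description of low signal; this reference was chosen after the values were seen. Their median level was 3.95 and their 95th percentile 5.27, and none of them passed the test. Of the 20 member probe sets, 11 lay above that percentile on average over the arrays. By brightest probe set 7 of 9 members did, and the exceptions were Elf5 and Gata3. Tfap2a and Cdx2 were just above it. The highest olfactory receptor probe set averaged 6.43, above Hand1 and Gata2 as well as Tfap2a and Cdx2. For the dim members a change in transcript may be hidden by background, and its size would be understated.

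**Figure D3:**
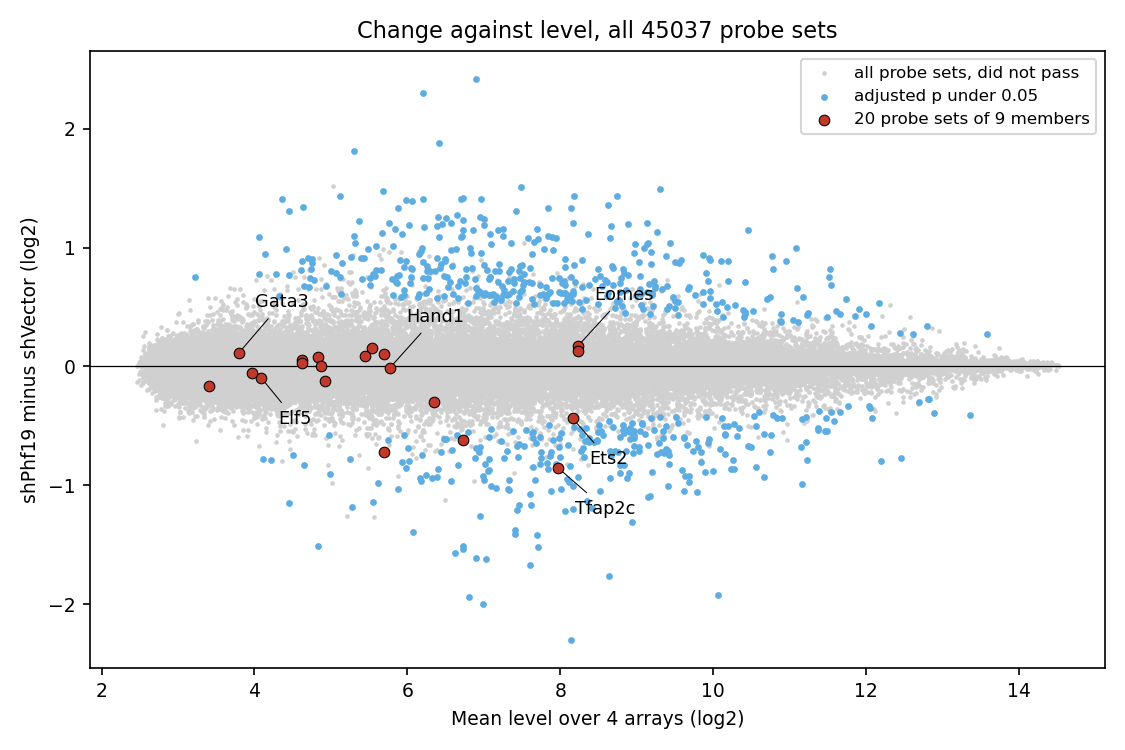
Change (shPhf19 minus shVector, log2) against mean level over the 4 arrays (log2) for all 45037 probe sets in grey, those with an adjusted p under the threshold in blue, and the 20 probe sets of the members in red. Tfap2c lies among the called probe sets at -0.85, Ets2 at the lower margin of the cloud at -0.44, and the remaining members inside it.

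The Tfap2c profile over the 4 arrays was most like those of Aph1a, Pttg1 and Bphl, by Euclidean distance between probe sets after each was centred on its mean. The distances were 0.040, 0.061 and 0.065 on the log2 scale. Aph1a, a subunit of gamma-secretase, changed by -0.86 ± 0.10 (SE; limma adjusted p = 0.0167), Pttg1, the separase inhibitor securin, by -0.79 ± 0.08 (adjusted p = 0.0108), and Bphl, a hydrolase gene, by -0.87 ± 0.09 (adjusted p = 0.0141). By the mean of its probe sets Bphl was at -0.30 and did not pass (adjusted p = 0.111), and Aph1a was at -0.53 (adjusted p = 0.0158). All of these also had shPhf19 replicate 1 as the lowest array. With 4 arrays, likeness of this kind is a description of these arrays.

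AP-2 proteins bind the palindrome GCCNNNGGC, so this consensus was searched in the 250 bases upstream of RefSeq transcription starts (GRCm38.p6), where it reads the same on both strands. Windows were held for 8 of the 10 members, not for Tfap2c or Hand1. The consensus occurred in 13.7% of 32851 windows. By gene, 3034 of the 14452 measured genes with a window held it. So did 3 of the 8 members, which had 11 windows in all. These were Cdx2, Gata2, in 1 of its windows, and Gata3. The windows with a match are printed because they are the members' upstream sequences that contain it, with the matches in capitals. The first base of the match lay 16 bases before the start in Cdx2, 222 in Gata2 (the second of its starts by coordinate) and 246, 231 and 221 in Gata3. The windows are chr5:147307250-147307499 on the minus strand for Cdx2, chr6:88198414-88198663 on the plus strand for Gata2 and chr2:9878601-9878850 on the minus strand for Gata3.
Cdx2: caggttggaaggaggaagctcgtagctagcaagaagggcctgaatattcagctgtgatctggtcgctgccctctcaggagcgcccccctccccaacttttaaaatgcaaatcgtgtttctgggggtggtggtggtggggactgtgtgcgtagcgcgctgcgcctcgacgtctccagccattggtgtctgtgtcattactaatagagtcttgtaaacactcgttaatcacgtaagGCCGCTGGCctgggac
Gata2: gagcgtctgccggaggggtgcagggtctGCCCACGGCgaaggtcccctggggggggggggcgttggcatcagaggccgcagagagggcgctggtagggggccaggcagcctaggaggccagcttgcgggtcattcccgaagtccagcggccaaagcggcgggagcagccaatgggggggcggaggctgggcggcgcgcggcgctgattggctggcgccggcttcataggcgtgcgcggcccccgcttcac
Gata3: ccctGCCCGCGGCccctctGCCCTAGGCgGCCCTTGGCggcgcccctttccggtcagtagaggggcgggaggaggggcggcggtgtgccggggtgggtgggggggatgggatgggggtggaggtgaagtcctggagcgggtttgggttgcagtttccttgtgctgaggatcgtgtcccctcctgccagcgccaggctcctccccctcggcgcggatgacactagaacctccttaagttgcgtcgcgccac

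None of these 3 genes passed the test, at 0.09 for Cdx2, 0.11 for Gata2 and 0.11 for Gata3. Over all genes with a window, 3034 held the consensus and 11418 did not. Of those with it 1.05% fell and 1.22% rose, beside 0.823% and 1.12% of those without it, and the median changes were 0.0013 and -0.0026. A match shows only that these letters occur, and neither binding nor its lack was measured.

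The same windows differed widely in CpG content, the feature of promoters at which Polycomb complexes are often found. The Ets2 window held 25 CpG dinucleotides, at the 90.4th percentile of all windows, and the Gata2 windows held 22 and 24. Gata3 held 19, Cdx2 13, each Tfap2a window 10 and Eomes 8, against a median of 6 over all windows. Elf5 held 2 at its first start and 8 at the second, and Gcm1 held 1. The windows of the members thus ranged from 1 to 25 CpG dinucleotides. Only bases upstream of the start were counted, so whole promoters were not classed.

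Upstream regulators of the trophectoderm programme were measured in a list of 19 genes, none of which rose or fell by the brightest probe set in limma, with 6 above and 1 below 0 at an unadjusted p under the threshold (7.73% and 7.35% of all genes). The median change was 0.04. Amot, an angiomotin that tethers Yap1 outside the nucleus, had the smallest p of the list and read 7.99 and 8.04 in shVector and 8.69 and 8.42 in shPhf19 (0.54 ± 0.11 SE; limma adjusted p = 0.0879). Its dimmer probe sets were at 0.10 (1425907_s_at) and -0.11 (1427584_at), and the mean of its 3 probe sets at 0.18 (adjusted p = 0.355). Tead1, a DNA-binding partner of Yap1, was next, at 0.27 ± 0.06 (SE; adjusted p = 0.0998). Chosen after its values were seen, Wwtr1, the co-activator TAZ, had 1 of 3 probe sets that passed. That probe set, 1417817_a_at, fell by 0.54 on the log2 scale (SE 0.07, limma adjusted p = 0.0258). The dimmest, 1437155_a_at, was at -0.48 ± 0.09 (limma adjusted p = 0.0662), and the brightest, 1417818_at, at -0.12 ± 0.08. Tead4, also chosen afterwards, was at -0.29 ± 0.10 (adjusted p = 0.283) and 1426337_a_at of the same gene at -0.38 ± 0.10 (adjusted p = 0.182). The remaining genes above 0 at an unadjusted p under the threshold were likewise named afterwards, by their brightest probe sets. They were Fgfr2 (0.36 ± 0.08 SE, limma adjusted p = 0.126), Yap1 (0.19 ± 0.05, adjusted p = 0.209), Fgf4 (0.19 ± 0.06, adjusted p = 0.240) and Fgfr1 (0.22 ± 0.07, adjusted p = 0.267).

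Of 25 listed trophoblast and placental genes 19 were measured. Of these 3 rose and 1 fell, beside 1.15% and 0.863% of all genes. The other 15 did not pass, and the median change was 0.07. Krt8, a keratin of simple epithelia including trophectoderm, read 8.17 and 8.12 in shVector and 6.96 and 7.19 in shPhf19, a 2.10-fold fall (limma adjusted p = 0.0108), and its other 2 probe sets passed as well. Its partner keratin Krt18, chosen afterwards, was at -0.25 ± 0.09 (SE; adjusted p = 0.310). Phlda2, an imprinted gene that restrains placental growth, read 5.97 and 6.12 in shVector and 7.00 and 6.90 in shPhf19, a rise of 1.88-fold (adjusted p = 0.0153). Peg10, an imprinted retrotransposon-derived gene needed for the placenta, rose from 4.32 and 4.31 to 5.29 and 5.08 (limma adjusted p = 0.0199), all near or below the low-signal reference, so no fold is given. The other rise was that of Cited1, given with the co-factors.

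Markers of differentiated trophoblast stayed at low signal. Only Tpbpa, of the spongiotrophoblast, and Ctsq, of the labyrinth, were measured of 7 listed, at 3.56 and 4.89 on average over the arrays, and neither passed (0.08 ± 0.09 and 0.07 ± 0.10 SE). The stem cell genes Ascl2 (0.24 ± 0.12) and Plet1 (0.09 ± 0.10), chosen afterwards, did not pass by their brightest probe sets. No dimmer probe set of Ascl2, Plet1 or Tpbpa passed, all at low signal. Among these were Ascl2 1432018_at (0.43 ± 0.10 SE, limma adjusted p = 0.136) and Tpbpa 1415809_at (0.31 ± 0.09, adjusted p = 0.192). Plet1 1423933_a_at was below 0 (-0.31 ± 0.11, adjusted p = 0.317), unlike the brightest probe set of Plet1.

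Among co-factors of AP-2 proteins, 1 of 7 measured rose and none fell, beside 1.15% and 0.863% of all genes. Cited1, a transcriptional co-activator without DNA binding of its own that is also used in trophoblast, rose from 4.72 and 4.47 in shVector to 5.28 and 5.52 in shPhf19 (limma adjusted p = 0.0486). Its control level was below the low-signal reference, so no fold is given. Cited2, chosen afterwards and at much higher signal, was at -0.14 ± 0.07 (SE). The median of the list was 0.19.

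Of 15 measured paralogs of the members, 1 rose and none fell, beside 1.15% and 0.863% of all genes. Their median change was 0.09. Gata6, a factor of primitive endoderm, rose by 1.19 ± 0.13 (SE; limma adjusted p = 0.0149) by its brightest probe set, and its other probe sets, 0.08 and 0.0018, did not pass; the mean of all 3 was at 0.42 (adjusted p = 0.0344). The AP-2 paralogs Tfap2b, Tfap2d and Tfap2e, chosen afterwards, were at 0.22, 0.02 and 0.30 with levels of 3.46 to 4.94, and none passed.

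Tfap2c also belongs with regulators of primordial germ cells. Of 7 of these that were measured, none rose and 1 fell, beside 1.15% and 0.863% of all genes. The other 6 did not pass, and the median change was -0.24. Ifitm3, an interferon-inducible membrane protein abundant in nascent germ cells, read 10.5 and 10.4 in shVector and 9.53 and 9.58 in shPhf19, a fall of 1.85-fold (limma adjusted p = 0.00693). Prdm1 and Prdm14, which act with Tfap2c in germ cell specification and were chosen afterwards, were at -0.56 ± 0.10 (SE; adjusted p = 0.0621) and -0.41 ± 0.08 (adjusted p = 0.0689), without overlap of the groups. Prdm1 passed with quantile normalization or either level filter, and Prdm14 with the stricter filter. Both also passed in the fit of probe set means, but each has a single probe set. The values of both were thus unchanged in that fit, which was made and adjusted over genes in place of probe sets. Dppa3, also chosen afterwards, was above 0, at 0.46 ± 0.11 (SE; adjusted p = 0.121).

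Some markers of another lineage moved with the groups. Of 10 extraembryonic endoderm markers 5 rose and none fell, beside 1.15% and 0.863% of all genes. By sign alone 7 lay above 0 and 3 below. Those below, named after their values were seen, were Sox7 (-0.24 ± 0.11 SE), Afp (-0.17) and Ttr (-0.0012), and none of them passed. The summed signal of the 10 on the linear scale was 2063 to 2135 in shVector and 3237 to 3238 in shPhf19. Such a sum weighs the brighter genes most. Above the low-signal reference lay 7 of the 10. The rises were 0.91 for the laminin gene Lamb1, 1.04 for the collagen gene Col4a1, 1.40 for the endocytic adaptor Dab2 (0.54 by the mean of its probe sets), 1.19 for Gata6 and, named after its value was seen, 1.17 for Pdgfra. The dimmer probe sets of Pdgfra, at 0.46 and 0.13, did not pass. Sox17, also named afterwards, did not pass by its brightest probe set (0.27 ± 0.11 SE). Its dimmer probe set, 1429177_x_at, rose from 3.55 and 3.76 in shVector to 5.18 and 4.95 in shPhf19 (limma adjusted p = 0.00875). All of these readings lay below the low-signal reference. Of 8 fibroblast markers none passed, with the smallest p for Pdgfrb (-0.68 ± 0.14 SE; limma adjusted p = 0.0923) and Thy1 (0.46 ± 0.12 SE; adjusted p = 0.169), 2 lay above that reference, and the sums were 272 to 276 and 245 to 254. Sums of the 9 embryonal carcinoma markers were 74013 to 76763 and 74077 to 74376. The part of these cell types in the Tfap2c result was not tested.

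**Figure D4:**
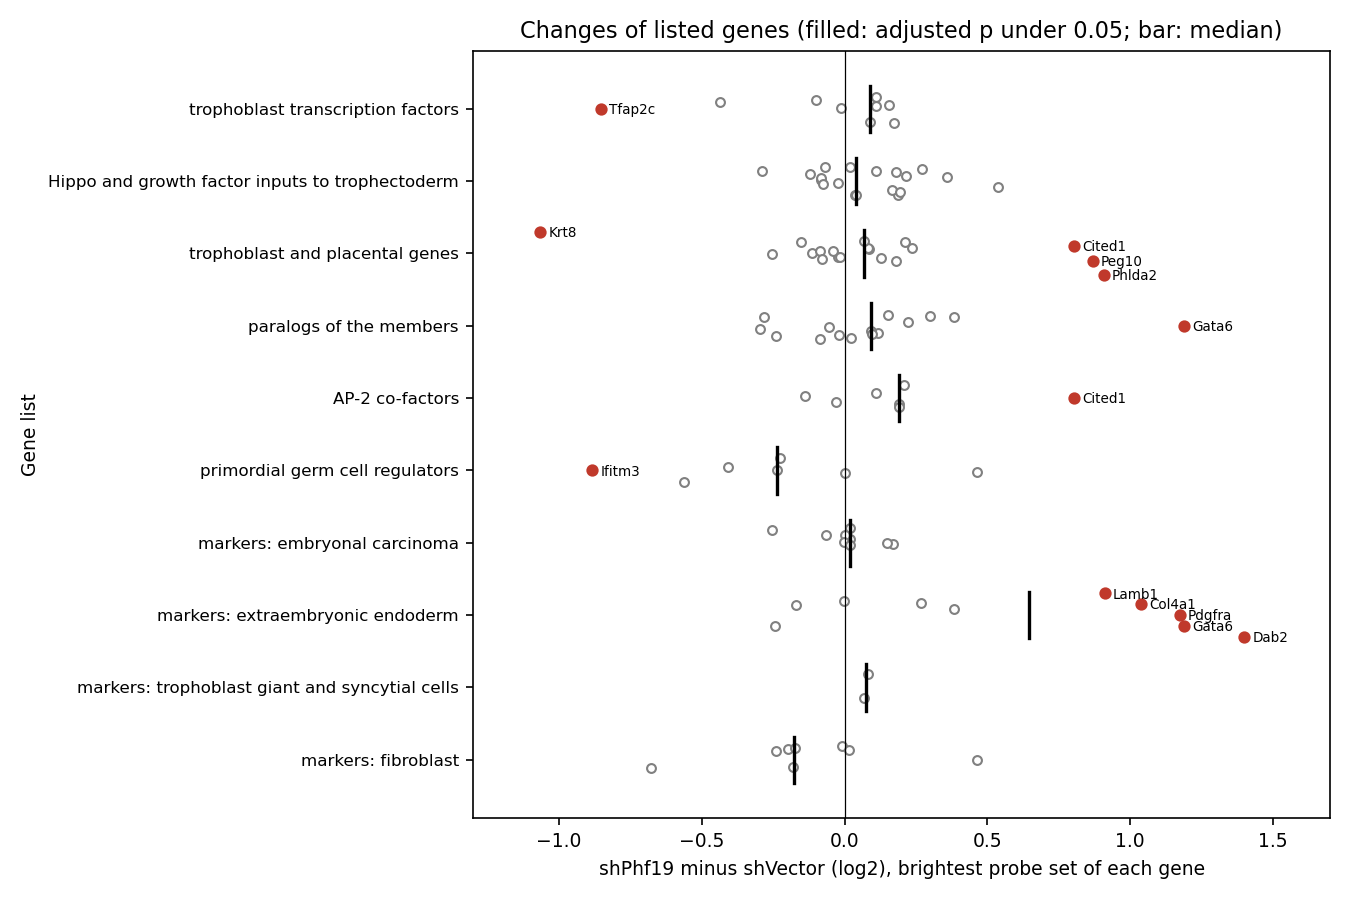
Change (shPhf19 minus shVector, log2, horizontal axis) of each measured gene by its brightest probe set, 1 row per gene list; filled red points have an adjusted p under the threshold and are named, open points did not pass, and the bar is the list's median. Tfap2c is the 1 filled point among 9 trophoblast factors, whose median is 0.09, and the endoderm markers have a median of 0.65.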

How the data were processed

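Total RNA from F9 cells was hybridised to 4 Affymetrix Mouse Genome 430 2.0 arrays. The authors deposited 1 value per probe set and array, read here as log2 expression because the values (2.31 to 14.5 over tested probe sets) are too high for natural logs of scanner readings; the arrays' medians nearly coincide, so they were normalized to each other. Which software and background correction were used is not stated per the labels; probe summaries can compress changes of dim probe sets.

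Left out were 64 control probe sets. The other 45037 were fitted with limma 3.58.1 in R 4.3.3 (lmFit, eBayes with an intensity trend), 2 arrays against 2, two-sided, and p-values were adjusted by Benjamini-Hochberg over all of them. The fit was tested on simulated data. A gene is represented by its probe set with the highest mean among those listed with that gene alone (34945 probe sets, 18193 genes). GEO's platform annotation gave the symbols, and for all 20 member probe sets the gene number matched RefSeq (GRCm38.p6).

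The members and lists were chosen with earlier results of these data known. Named were all members, Phf19, and per other list up to 4 passing genes per direction or the 2 with the smallest p, and the 3 genes with profiles most like a called member; other names are marked as chosen afterwards. The labels do not say that replicate numbers pair arrays, so no replicate term was used. Alternatives were quantile normalization, median centring, no trend, 2 level filters, replicate blocks, the mean of probe sets and each array left out. The number of arrays limits precision.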

Additional observations from a re-analysis of the deposited data

How the results depend on the processing

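Among single values, Tfap2c stayed below 0 in every alternative, from -0.96 to -0.73 for its brightest probe set or the mean of its probe sets. It passed with quantile normalization, median centring, no trend, either level filter and the mean of probe sets. Tfap2c also passed with the crossed block, which pairs arrays against their numbers. That block was chosen after these data were seen, so its pass is no separate support. In these fits limma adjusted p ran from 0.00722, for the mean of probe sets, to 0.0364. Tfap2c did not pass with the replicate block (limma adjusted p = 0.248) or when any 1 array was left out.

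With the labels' numbers as a replicate block limma called 0 probe sets in either direction (3890 at an unadjusted p under the threshold), so 0 of every list, members included. Over probe sets, arrays that share a number deviated from the mean of their group with a correlation of -0.197, so the numbers do not show a pairing. A crossed block, chosen after seeing the data, called 596 probe sets in all and 1 member probe set. Without 1 array, all counts, of probe sets, members and every list, ranged from 0 to 0. Without a trend 229 probe sets were higher and 151 lower, and 0 AP-2 co-factors. Without the lowest 50% of probe sets, 1 trophoblast and placental gene (Phlda2) was higher and 0 AP-2 co-factors, since Peg10 and Cited1 fall under that filter. Lower germ cell regulators numbered 2 with quantile normalization or without the lowest 25% (Ifitm3, Prdm1), and 3 without the lowest 50% or with the mean of probe sets (also Prdm14). Prdm1 and Prdm14 have a single probe set each, so with that mean only the fit and adjustment over genes differed for them. That mean also called 1 upstream regulator lower, Wwtr1.

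Signs of values that did not pass turned without 1 array for Tfap2a 1426048_s_at (range -0.19 to 0.34), Cdx2 1422075_at (-0.057 to 0.063), Gata2 1428816_a_at (-0.034 to 0.14), Gata3 1448886_at (-0.052 to 0.27), Ets2 1437809_x_at (-0.13 to 0.029), Hand1 1417525_at (-0.057 to 0.035), Hand1 1448750_at (-0.12 to 0.18) and Phf19 1431857_at (-0.16 to 0.052). With the mean of probe sets Hand1 was at 0.0099 and Sall4 at -0.048. The cause of these changes was not tested. Of 469 single values under alternatives, 376 kept direction and call, 78 lost a call, 14 turned sign and 1 gained a call. The 78 all belonged to values that passed in the main fit. Values that did not pass there keep that status easily, so the 376 do not measure how stable the calls were.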
